A study of Mus musculus with 11 samples.

Results

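The cytosolic ribosomal proteins are the protein parts of the ribosome that translates messenger RNA outside mitochondria. Their transcripts were followed in colon T cells with and without the interleukin 23 (IL-23) receptor. Members were taken by gene symbol, as Rpl or Rps with a number and an optional a, l, x or y, together with Rplp0, Rplp1, Rplp2 and Rpsa. That rule found 88 of the 45281 probes on the array, for 59 genes. Of these, 75 probes for 51 genes were measured, which required a detection p below 0.05 on 5 or more of 11 arrays. They comprised 28 probes of the small (40S) and 47 of the large (60S) subunit.

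The samples were TCRβ+CD4+ T cells, the helper lineage, taken from the lamina propria of the colon and all labelled C57BL/6. Naive CD4 T cells that were WT or Il23r-/- had been transferred together into Rag1-/- mice. These mice lack mature T and B cells of their own but keep myeloid and other innate cells. Both genotypes therefore lived in the same inflamed hosts, and were sorted apart by congenic markers once signs of colitis appeared, with RNA extracted straight after the sort. There were 6 WT and 5 Il23r-/- samples, here called knockout, each on 1 Illumina bead array. The labels name no age, sex, time after transfer or pooling of animals, and do not say whether each sample came from its own recipient. The p-values therefore measure spread among samples that may be technical replicates.

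Each ribosome holds 1 copy of nearly every ribosomal protein, and dividing T cells spend a large part of their transcription and translation on making them. The large subunit joins amino acids and carries the tunnel through which the new chain leaves, the small subunit reads the codons, and a stalk of acidic proteins on the large subunit recruits the elongation factors. Most of these messages begin at a C followed by a run of pyrimidines, the 5′ terminal oligopyrimidine tract. Through it the kinase mTOR and the repressor Larp1 set how strongly they are translated. An array reads the amount of message, not its translation.

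The start regions of 6 members are shown because the family is known for this tract, and to let the annotated starts be read against it. They come from RefSeq, build GRCm38.p6, and run from 40 bases before to 20 bases after the annotated start. Capitals mark the longest run of C and T in each window. Rps6, the substrate of the S6 kinases, lies at chr4:86857348-86857407 on the minus strand. Rplp2, a stalk protein, lies at chr7:141447611-141447670 on the plus strand, Rps15a at chr7:118116128-118116187 on the minus strand and Rpl14 at chr9:120571477-120571536 on the plus strand. Rpl4, whose probe had the most negative difference of all members, lies at chr9:64173347-64173406 on the plus strand, and Rps13, with the most positive one, at chr7:116334171-116334230 on the minus strand.
Rps6: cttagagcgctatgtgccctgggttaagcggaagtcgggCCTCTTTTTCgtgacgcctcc
Rplp2: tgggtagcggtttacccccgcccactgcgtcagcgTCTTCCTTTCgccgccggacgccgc
Rps15a: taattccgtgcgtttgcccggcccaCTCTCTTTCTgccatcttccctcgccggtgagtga
Rpl14: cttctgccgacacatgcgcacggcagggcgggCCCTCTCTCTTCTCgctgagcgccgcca
Rpl4: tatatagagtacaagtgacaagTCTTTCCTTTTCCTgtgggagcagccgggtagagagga
Rps13: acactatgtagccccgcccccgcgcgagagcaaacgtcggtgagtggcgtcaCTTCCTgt

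In Rps6, Rplp2 and Rpl14 the run crosses the annotated start, and in Rpl4 it ends 5 bases before it. In Rps15a the longest run ends 6 bases before the start and a shorter run of C and T crosses it, while Rps13 has a run of 6 after it. Start regions (250 bases before to 50 after) were found for 48 of the 59 member genes. In 9 of the 48 (18.8%) the first base was C and the next 4 were each C or T, as in 3.01% of all 27025 genes with such a window. Rps6, Rplp2, Rps15a and Rpl14 were among the 9, and Rpl4 and Rps13 were not, so most member genes did not show the tract at the start as annotated here. The letters CCGGAAG, a core recognised by ETS family factors, stood on either strand of 22 (45.8%) against 9.93% of all genes. TATAAA stood on either strand of 5 (10.4%) against 15.7%. A gene with several annotated starts was counted if any of its windows held the letters. These are matches of letters in a window, not tested sites.

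Il23r, the deleted gene, gave no check of the genotype labels. Its probe was detected on 0 of the 11 arrays, with a log2 value of 4.78 ± 0.11 (SD, n = 6) for WT against 4.71 ± 0.08 (SD, n = 5) for knockout samples. Between 17309 and 18440 probes were detected per array, and the median raw intensity ranged from 107.6 to 176.7. Of 9 measured T cell markers 0 were called (median -0.06), among them Cd3e, detected on all arrays, while of the CD8 genes Cd8a was detected on none and Cd8b1 was measured, at -0.18. Of the marker lists for other cells, myeloid genes had a median difference of 0.29 with 0 of 11 measured genes called. Their differences ran from -0.79 to 0.44, 9 positive and 2 negative. Their summed raw intensity ran from 8469 to 19773 in WT and from 10352 to 19431 in knockout samples. Itgam and Itgax of that list were detected on no array. Of 11 epithelial genes 6 were measured, with differences from -0.75 to 0.82 and summed raw intensities of 1988 to 4027 in WT and 2250 to 3721 in knockout samples, while Epcam, Krt19, Vil1 and Fabp2 were detected on no array. Of 9 stromal genes 3 were measured (-0.59 to 0.29), with Col1a1, Col1a2 and Col3a1 detected on no array, of 3 red cell genes 2 (median -0.35), and of 5 B and plasma cell genes 1 (Cd79b, 0.06). None of these genes were called, and their part in the ribosomal protein values was not tested. In sorted bulk samples, fewer cells of a type and less RNA per cell cannot be told apart.

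Ribosomal protein transcripts showed no called difference between knockout and WT T cells. By limma, 0 of the 75 member probes passed a Benjamini-Hochberg adjusted p under 0.05, where 320 of all 18003 tested probes (1.78%) did, 1.17% higher and 0.611% lower in knockout samples. At the share over all probes, a list of 75 probes would hold few calls, so 0 lies near that share. The smallest adjusted p among members was 0.15. At an unadjusted p under 0.05, 2 members stood (Rpl4 and Rps13, 1 probe each), against 17.6% of all probes. On the authors' log2 values this contrast was gone: 14 of 75 members stood at an unadjusted p under 0.05 against 18.0% of all probes, and again 0 passed the adjusted threshold. The groups separated without overlap for 0 members, against 3.21% of all probes, a share at which 75 probes would also hold few.

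The measured differences were small, and their intervals were narrow mainly for the brighter members. Values are on a log2 scale after background correction and quantile normalization, and differences are knockout minus WT. The median difference over members was 0.01, with 42 positive and 33 negative, and over all tested probes it was -0.01. That balance of signs depended on scaling, with 24 of 75 positive when arrays were set to equal medians and 17 of 75 on the authors' log2 values. The differences of 67 of the 75 members lay between -0.15 and 0.15, as did 58.0% of all tested probes. For 69 of the 75 the 95% confidence interval lay within 1.5-fold in both directions (0.58 on the log2 scale), as for 83.7% of all probes. The exceptions were 1 probe each of Rpl4, Rpl14, Rpl23, Rpl27a, Rps13 and Rps15a. All of them were among the 26 members with a mean normalized log2 value under 13, of which 20 had such an interval. The median standard error was 0.08 among members and 0.11 among all probes. It was 0.07 for the 49 members at or above 13 and 0.11 for the 26 below. These intervals are each for 1 probe and are not adjusted for their number.

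**Figure D1:**
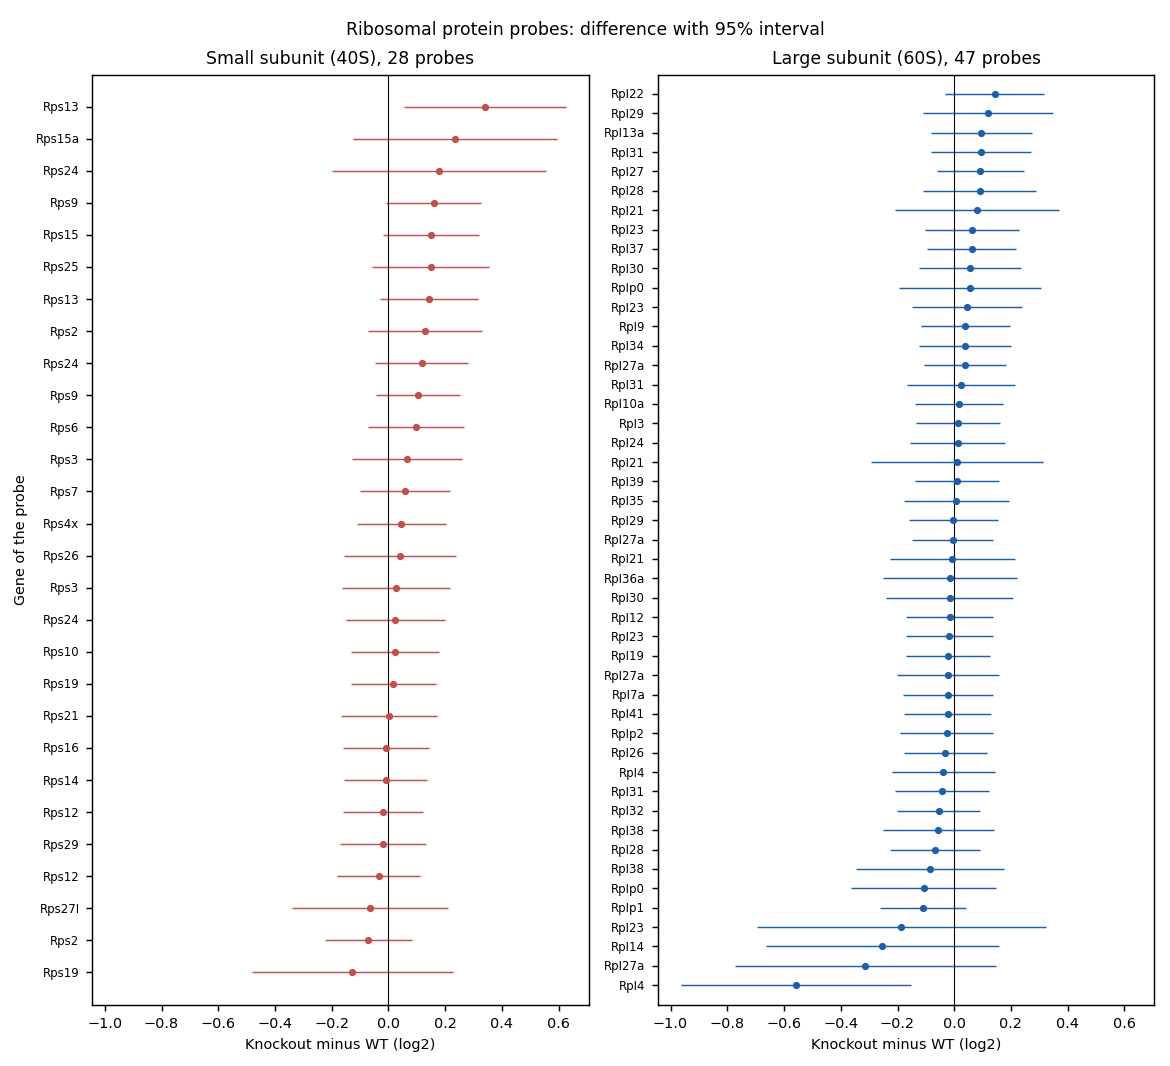
Difference between knockout and WT (log2, horizontal axis) for each of the 75 measured ribosomal protein probes, with its 95% confidence interval from limma, small subunit left and large subunit right, named by gene. Nearly every interval crosses 0; the exceptions are 1 probe of Rps13 (0.34) and 1 of Rpl4 (-0.56), neither of which passed the adjusted threshold.

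**Figure D2:**
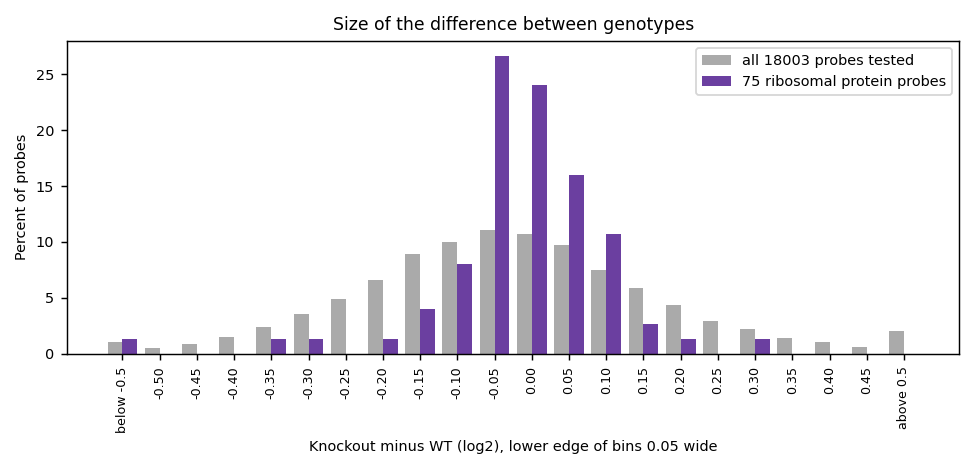
Percent of probes (vertical axis) by the size of their knockout minus WT difference (log2, bins 0.05 wide) for the 75 ribosomal protein probes and for all 18003 tested probes. Members gather near 0, with 38 of the 75 between -0.05 and 0.05.

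Many member probes were very bright, which limits what the array can resolve. Raw intensities of the measured members ran from 112.1 to 60104 on a linear scale, and 35 of the 75 had a mean normalized log2 value of at least 15, where the highest value of any probe was 15.71. Quantile normalization gives such probes values set by their rank at the top of the array, and a signal near the top of the range can understate a difference. The intervals of these 35 probes therefore describe the measured values and set no bound on the difference in transcript level. The 26 members with a mean under 13 hold both probes with an unadjusted p under 0.05, and 0 of the 26 passed. Among the 49 members at or above 13, differences ran from -0.11 to 0.16, and 0 had an unadjusted p under 0.05.

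The stalk proteins of the large subunit came first among the members by role. Rplp1, an acidic stalk protein, stood at 15.53, 15.57, 15.49, 15.56, 15.58 and 15.51 in the WT samples and at 15.35, 15.36, 15.54, 15.42 and 15.49 in the knockout samples. Knockout samples 1, 2 and 4 lay below every WT sample, and knockout samples 3 and 5 were within the WT range. The difference was -0.11 ± 0.07 (SE, limma adjusted p = 0.434). Its partner Rplp2 differed by -0.03 and Rpl12, at the base of the stalk, by -0.02. These sizes depended on scaling. With arrays set to equal medians Rplp1, Rplp2 and Rpl12 were at -0.21, -0.12 and -0.12. On the authors' log2 values they were at -0.26, -0.17 and -0.17, and none passed in either scaling. Rplp0, the scaffold of the stalk, was read by a brighter probe at 0.05 ± 0.12 (SE) and by a dimmer probe at -0.11 ± 0.12 (SE), so that its probes had opposite signs within their errors. Over the 4 stalk genes, by their brightest probes, the median was -0.02 and 0 were called.

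Proteins of the exit tunnel and the rest of the large subunit centred on 0. Of the tunnel list, 7 genes were measured by their brightest probe, 0 were called, and the median was -0.02. Rpl39, a very small tunnel protein, differed by 0.01, Rpl19 by -0.02, Rpl26 by -0.03 and Rpl35 by 0.01. Rpl22, which the T cell lineage needs during development in mice, read from 10.01 to 10.31 in WT samples (median 10.10) and 10.32, 10.20, 10.38, 10.18 and 10.30 in knockout samples. Its difference was 0.14 ± 0.08 (SE, limma adjusted p = 0.377), the highest of the large subunit, and the groups overlapped. Its paralog Rpl22l1, outside the naming rule, was at -0.31 ± 0.20 (SE, limma adjusted p = 0.43), from 11.39 ± 0.45 (SD, n = 6) for WT to 11.08 ± 0.26 (SD, n = 5) for knockout. Over all 47 large subunit probes the median was -0.00, with 22 positive and 25 negative.

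Rpl4, which lines the exit tunnel, had the most negative difference of all members, on 1 of 2 probes. The dimmer probe stood at 7.28, 6.96, 7.65, 6.60, 7.82 and 7.57 in WT samples 1 to 6 and at 6.57, 6.86, 6.91, 6.82 and 6.62 in the knockout samples. Every WT sample other than 4 was above every knockout sample, while WT sample 4 was lower than all but 1 of them, so the groups overlapped. The difference was -0.56 ± 0.19 (SE, 95% interval -0.96 to -0.15, limma adjusted p = 0.15). Its size depended on processing: it was -0.32 without background correction and -0.34 on the authors' log2 values. The other probe, with a raw intensity of 3806 to 6513 against 182.1 to 305.2, gave -0.04 ± 0.08 (SE), from 12.22 ± 0.14 (SD, n = 6) to 12.18 ± 0.07 (SD, n = 5). The dimmer probe passed when WT sample 4 was left out (-0.70, limma adjusted p = 0.0418). Over the 11 fits that left out 1 array its adjusted p ran to 0.277, and the other 10 fits did not pass.

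The same WT samples stood high on further dim probes of the large subunit. The dimmest probe of Rpl27a, of 4 measured, was at 6.81, 6.82, 7.48, 6.64, 7.72 and 7.51 in WT and at 6.38, 7.24, 7.07, 6.96 and 6.61 in knockout samples, with a difference of -0.31 ± 0.21 (SE, limma adjusted p = 0.465). The dimmest of 4 Rpl23 probes was at 5.96, 5.61, 6.73, 5.70, 6.88 and 6.89 in WT and between 5.92 and 6.25 in knockout samples, a difference of -0.19 ± 0.24 (SE). On both probes WT samples 3, 5 and 6 were the highest of all 11. The other 3 probes of Rpl27a differed by -0.02, -0.00 and 0.04, and the other 3 of Rpl23 by -0.02, 0.04 and 0.06. Rpl14, with a single probe near background (detected on 5 WT and 4 knockout arrays), was at -0.25 ± 0.19 (SE, limma adjusted p = 0.513), with 5.61 to 6.82 in WT and 5.61 to 6.35 in knockout samples.

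**Figure D3:**
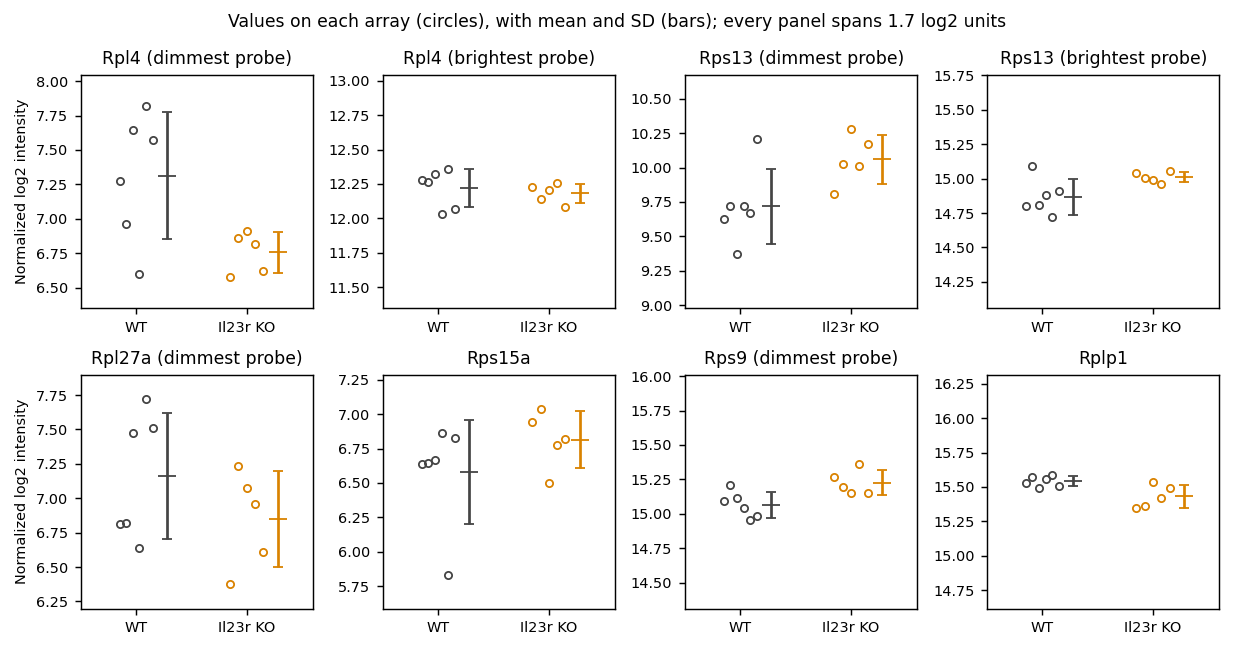
Normalized log2 intensity on each array (circles) for 8 probes of 6 ribosomal protein genes, WT (6 arrays) and Il23r knockout (5 arrays), with mean and SD beside them, each panel spanning the same height. The dim probe of Rpl4 spreads from 6.60 to 7.82 in WT samples while its bright probe stays within 12.03 to 12.36, and no panel shows groups that fully separate.

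The small subunit leaned slightly upward. Of its 28 probes, 20 were positive, 8 were negative and 0 were called, with a median difference of 0.04. Ranked by the highest probe of each gene, the top 6 genes of the family, Rps13, Rps15a, Rps24, Rps9, Rps15 and Rps25, belonged to it. Rps24 entered on its dimmest measured probe (0.18), while its brightest was at 0.02. Rpl22 of the large subunit (0.14) came close behind Rps25 (0.15). The lean depended on scaling: with arrays set to equal medians the small subunit median was -0.05 and that of the large subunit -0.05 too, and on the authors' log2 values they were -0.09 and -0.10. In those scalings the median of all tested probes was 0.04 and -0.02.

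Rps13, a protein of the small subunit body, was the most positive member. Its dimmer probe stood at 9.63, 9.72, 9.37, 9.72, 9.67 and 10.21 in WT and at 9.81, 10.03, 10.28, 10.02 and 10.17 in knockout samples. Every knockout sample was above every WT sample other than WT sample 6, which was higher than all but 1 of them. The difference was 0.34 ± 0.13 (SE, 95% interval 0.06 to 0.63, limma adjusted p = 0.203). It was not called in any of the 11 fits that left out 1 array, where the lowest adjusted p was 0.0658, without WT sample 6. The brighter probe gave 0.14 ± 0.08 (SE, limma adjusted p = 0.369), from 14.87 ± 0.13 (SD, n = 6) to 15.01 ± 0.04 (SD, n = 5). With arrays set to equal medians the brighter probe was at 0.05, and on the authors' log2 values at -0.003. The dimmer probe stayed positive in these scalings, at 0.39 and 0.30.

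Rps9, which helps to keep decoding accurate, had both probes above 0 after quantile normalization. The one at 0.16 ± 0.08 (SE, limma adjusted p = 0.31) read 15.09, 15.21, 15.11, 15.04, 14.95 and 14.98 in WT and 15.27, 15.19, 15.15, 15.36 and 15.15 in knockout samples, so that only WT sample 2 reached into the knockout range. The other was at 0.10 ± 0.07 (SE). Their signs depended on scaling. With arrays set to equal medians these Rps9 probes were at 0.05 and -0.01, and on the authors' log2 values at -0.0005 and -0.06. Rps15, at the decoding side of the head, was at 14.03, 14.25, 13.96, 14.11, 13.96 and 14.18 in WT and between 14.17 and 14.27 in knockout samples. WT samples 2 and 6 lay within the knockout range, and the difference was 0.15 ± 0.08 (SE, limma adjusted p = 0.338).

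Rps15a was at 0.23 ± 0.17 (SE, limma adjusted p = 0.487), and WT sample 5, at 5.83, was far below the other WT samples (6.64 to 6.87). Rps25 was at 0.15 ± 0.10 (SE), with knockout sample 5 the highest at 14.02 and the other knockout samples at 13.53 to 13.76, beside 13.43 to 13.67 in WT. The 3 measured probes of Rps24 are annotated to 3 different transcript records and gave 0.02, 0.12 and 0.18, with SE of 0.08, 0.08 and 0.18. None of these passed.

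Members with well-known regulatory roles were also near 0. Rps6, whose phosphorylation by S6 kinases is a common readout of mTOR activity, was at 14.69, 14.85, 14.62, 14.58, 14.64 and 14.60 in WT and 14.84, 14.86, 14.66, 14.69 and 14.75 in knockout samples. The groups overlapped and the difference was 0.10 ± 0.08 (SE, limma adjusted p = 0.547). Rps3, at the messenger RNA entry, gave 0.07 and 0.03 on its probes. Rps19, the gene most often mutated in human Diamond-Blackfan anaemia, gave 0.02 ± 0.07 (SE) on its bright probe and -0.13 ± 0.16 (SE) on one near background, detected on 4 WT and 2 knockout arrays. Of the measured genes of a list tied to that disease, 0 were called and the brightest probes ran from 0.02 to 0.06. Rps27l, a paralog of Rps27 induced by p53, ran from 12.87 to 13.39 in WT and from 12.85 to 13.45 in knockout samples, a difference of -0.07 ± 0.13 (SE, limma adjusted p = 0.832).

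Probes of 1 gene gave a second reading of each difference. Of the 51 measured genes, 17 had more than 1 measured probe. In 13 of the 17 the differences of the probes lay within 0.2 of each other, and in 10 the probes included both signs. Rpl4 had the widest spread, 0.52, followed by Rpl27a (0.35), Rpl23 (0.25) and Rps2 (0.20). Rps2 gave -0.07 ± 0.07 (SE) on one probe and 0.13 ± 0.09 (SE) on the other.

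Not every member gene could be read. Of the 88 probes, 13 did not pass the detection filter, 9 of them detected on no array. They left 8 genes unmeasured: Rpl3l, a muscle paralog of Rpl3, Rpl39l, a paralog known from the testis, Rps4l, annotated by RefSeq as a transcribed pseudogene, and Rpl6, Rpl17, Rps20, Rps23 and Rpsa. The last 5 encode standard parts of the ribosome, so a dim probe here does not show that the transcript was absent. Probes of Rpl37 (2), Rps24 (1) and Rplp2 (1) also failed while another probe of the same gene was bright. RefSeq lists 321 genes named as pseudogenes of this family, and near-identical copies may share a probe's signal.

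Array by array, the spread of the members depended on the scale. After quantile normalization, the deviation of each probe from its mean over all arrays, taken as a median over the 75 members, ran from -0.03 to 0.05 in WT and from -0.02 to 0.03 in knockout samples. On the authors' log2 scale it ran from -0.03 to 0.12 in WT and from -0.12 to 0.03 in knockout samples, with means of 0.04 ± 0.05 (SD, n = 6) and -0.05 ± 0.05 (SD, n = 5), and the groups overlapped. For the small subunit after quantile normalization it was -0.02, 0.04, -0.02, -0.02, -0.07 and -0.01 in WT and 0.09, 0.06, 0.02, 0.01 and 0.01 in knockout samples. WT sample 2 was the single WT sample within the knockout range, and WT sample 5 was the lowest. For the large subunit it was 0.02, 0.06, 0.01, 0.01, 0.02 and -0.04 in WT and 0.01, -0.00, 0.02, -0.01 and -0.02 in knockout samples, with full overlap. Knockout samples 1 and 2, the highest for the small subunit, had median raw intensities of 176.7 and 164.0, among the 3 brightest arrays. The other of these 3, WT sample 1 (165.3), was at -0.02 for the small subunit. With array brightness as a covariate, the small subunit median was 0.03 and that of the large subunit -0.01.

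The share of summed raw intensity held by the 75 probes, which no normalization touches, was 5.49%, 5.78%, 5.64%, 5.28%, 6.12% and 5.36% in WT samples 1 to 6. It was 5.19%, 5.29%, 5.93%, 4.98% and 5.48% in knockout samples 1 to 5. The groups overlapped, at 5.61% ± 0.31 (SD, n = 6) and 5.38% ± 0.36 (SD, n = 5).

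**Figure D4:**
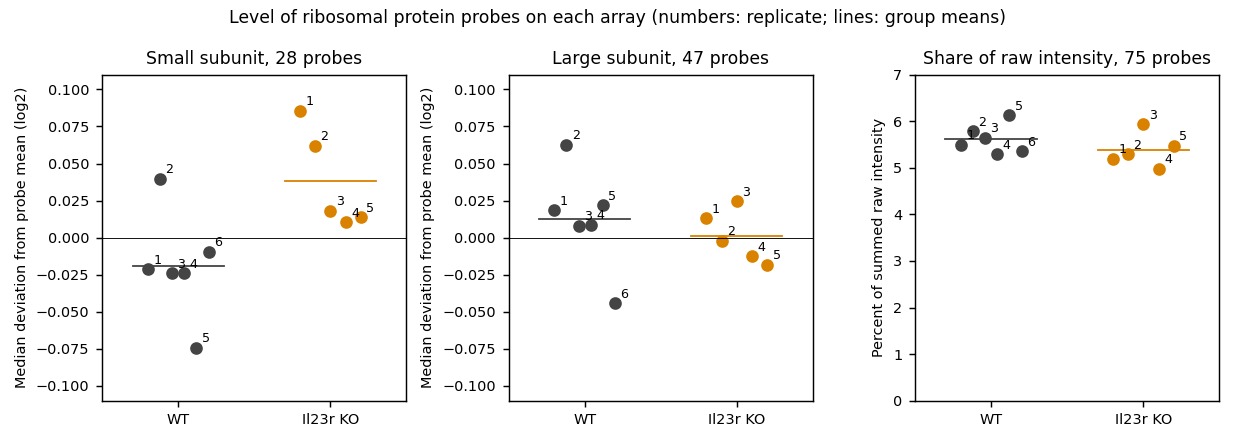
Median deviation of small subunit probes (left) and large subunit probes (middle) from each probe's mean (log2), and their percent of summed raw intensity (right), for each array, with replicate numbers and group means as lines. Small subunit values lie between -0.07 and 0.09, and the groups overlap in all 3 panels.

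Few genes were called in the rest of the translation machinery, where lists this short would hold few calls at the share over all genes. With the brightest measured probe standing for a gene, 177 of 9139 genes (1.94%) were called over the whole array, 1.27% higher and 0.667% lower in knockout samples. Elongation factors, which move the ribosome along the message, had 0 of 7 genes called (median -0.01), with Eif5a at -0.12 and Eef1g at 0.08. Initiation factors had 0 of 24 called (median -0.05, 18 negative), with Eif5 at 0.24 ± 0.08 (SE, limma adjusted p = 0.175) and Eif3c at -0.26. The mitochondrial ribosome, a separate particle, had 0 of 72 called (median -0.02), with Mrpl4 at -0.29 and Mrpl20 at -0.30. Subunits and factors of RNA polymerase I, which makes ribosomal RNA, had 0 of 14 called (median -0.01), with Taf1a at 0.24 and Rrn3 at -0.22.

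In the control of ribosome output by mTOR and Myc, 0 of 14 genes were called (median 0.05). Eif4ebp2, a repressor of initiation, was at -0.41 ± 0.13 (SE, limma adjusted p = 0.13) and Larp1 at -0.20 ± 0.11 (SE, limma adjusted p = 0.34). Other transcripts that start with a pyrimidine tract had 0 of 8 called (median -0.04), with Tpt1 at -0.31 and Vim at -0.21. Among relatives outside the naming rule, Rps3a1 was at -0.12, Rpl36al at 0.01, and Rpl7l1 at -0.01 and -0.28 on its probes, and none passed. Of the paralog list (Rps27l, Rpl22l1, Rpl36al and Rpl7l1 were measured), 0 of 4 genes were called and the median was -0.04.

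The list of 54 measured genes for ribosome assembly had a median of 0.01. Its single gene called by the brightest probe, against 1.94% of all genes, was Rrp1b, a nucleolar protein. That probe rose from 11.16 ± 0.20 (SD, n = 6) to 11.62 ± 0.14 (SD, n = 5), a difference of 0.46 ± 0.11 (SE, limma adjusted p = 0.048). Another of its 4 probes rose by 0.51 ± 0.11 (SE, limma adjusted p = 0.0289). The other two were at 0.43 (limma adjusted p = 0.0714) and 0.15 (limma adjusted p = 0.616), without passing. The brightest probe kept its call without WT sample 1 or 2 and lost it in each of the other 9 fits that left out 1 array (limma adjusted p up to 0.12). With arrays scaled to the same median, neither probe passed (limma adjusted p = 0.104 and 0.0759). Utp14a, of the small subunit processome, was at -0.25 ± 0.07 (SE, limma adjusted p = 0.117). Znhit6, an assembly factor of small nucleolar ribonucleoproteins, was at 0.22 ± 0.10 (SE, limma adjusted p = 0.265) on its brightest probe, while its other probe, detected on 6 WT and 3 knockout arrays, fell by 1.06 ± 0.19 (SE, limma adjusted p = 0.0143).

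**Figure D5:**
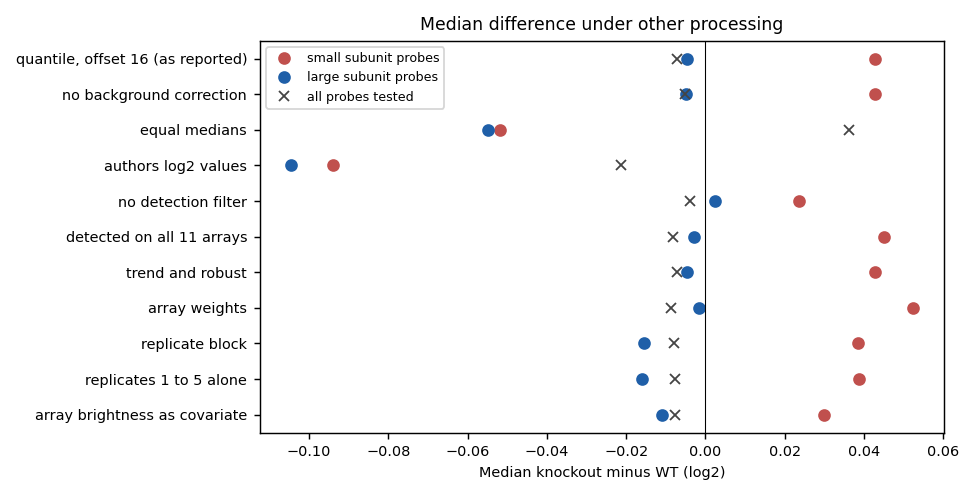
Median knockout minus WT difference (log2, horizontal axis) of small subunit probes, large subunit probes and all tested probes under each way of processing (vertical axis). Both subunits are near 0 under most settings and turn negative with equal medians (-0.05 and -0.05) and on the authors' log2 values (-0.09 and -0.10).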

How the data were processed

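The 11 samples were each hybridised, after amplification and biotin labelling, to a 1-colour Illumina bead array. The authors deposited linear intensity values made in GenomeStudio 1.6.0, as the submitters' processing notes name it, and no further steps are named there. The deposited detection column is a fraction that rose with intensity and was taken as 1 minus a detection p. The authors also deposited log2 values, which matched log2 intensity less the 75th percentile per array. Rows were joined to probe names through all 11 values (largest difference 0.000339), and genes came from the platform annotation. All 88 member probes matched a RefSeq gene (GRCm38.p6) of the same symbol.

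Intensities were processed by neqc (limma 3.58.1, R 4.3.3), which applies normexp, an offset of 16 and quantile normalization. The offset shrinks differences of dim probes, while background correction enlarges them. Without background correction the dimmest probes of Rpl4 and Rpl27a were at -0.32 and -0.18, and Rps15a was at 0.11. Probes with detection p under 0.05 on 5 or more arrays were kept (18003). Genotypes were compared with lmFit and eBayes, two-sided, with Benjamini-Hochberg adjustment over all kept probes. The code was tested on simulated data.

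Members and lists were chosen with earlier results of these data known. Named members are the 6 highest and 6 lowest genes, those whose probes differ by over 0.5, and the stalk and paralog lists. Of each further list, up to 2 genes with the smallest p were named. Other members (Rps6, Rps3, Rps2, Rpl22, Rpl19, Rpl26, Rpl35, Rpl39) and Rps3a1 were named for their role after values were seen. The labels name no slide, so a slide effect was not tested. The number of arrays limits the precision.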

Additional observations from a re-analysis of the deposited data

Results flagged for a closer look

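Within a genotype, 6 values stood apart from the other arrays of their group by Dixon's criterion, among 92 groups of values examined, where chance gives about 1 in 20. The groups examined did not cover every member probe in both genotypes, so 6 is not a full count for the family. Rps24 was low on its probe of middle brightness in WT sample 6 (10.15, the others 10.29 to 10.34) and on its brightest probe in knockout sample 4 (15.29, the others 15.50 to 15.53). Rps15a was low in WT sample 5 (5.83, the others 6.64 to 6.87). On probes too dim for the main test, Rps4l stood at 7.11 in WT sample 1 (the others 4.89 to 5.55), Rpl6 at 5.65 in WT sample 2 (the others 5.28 to 5.35) and 1 probe of Rpl37 at 5.25 in WT sample 1 (the others 4.88 to 4.98).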

How the results depend on the processing

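The count of called members was 0 in every fit run, with 1 exception: without WT sample 4 it was 1 (the dim Rpl4 probe), so it ran from 0 to 1 over the fits that left out 1 array. Of 606 values of named members under alternatives, 605 stayed on the same side of the threshold. The median over members moved to -0.054 with equal medians and to -0.10 on the authors' log2 values, and the small minus large subunit difference (0.05) shrank to 0.0031 with equal medians, where the cause was not tested. The count over all probes was 210 without the detection filter, which tests more probes, 512 with array brightness as a covariate, and 159 to 513 with 1 array left out (513 without WT sample 2, and 162, 159, 187, 178 and 181 without WT samples 3 and 5 and knockout samples 2, 3 and 4). The 1 gene called in the related lists (Rrp1b) became 0 with equal medians, without the filter, with replicates 1 to 5 alone, with the mean of all probes per gene, and, over the fits without 1 array, the count was 0 to 1. A fit with replicate block called 264 probes in all, 0 members and 0 related genes, with both called Rrp1b probes lost (limma adjusted p = 0.131 and 0.0588). The numbers are not stated to pair samples: same-numbered samples had correlations of deviations from -0.01 to 0.26, 3 of 5 over 0.1, and 3 of 5 WT samples correlated best with their own number. For 35 members at the top of the intensity range, brightness limits what could be resolved.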
